A study of Mus musculus with 6 samples.

Results

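The thick ascending limb (TAL) of the loop of Henle and the distal convoluted tubule (DCT) follow the proximal tubule along the nephron. They were examined here through 9 genes of salt transport and segment identity: Umod, Slc12a1, Kcnj1, Cldn16, Cldn19, Slc12a3, Pvalb, Bsnd and Wnk4. The genes were found by their names in the deposited tables, and 9 of the 54532 genes listed there matched. Expression was measured by RNA-sequencing of total RNA from kidney tissue of C57BL/6J mice, 3 wild type (WT) and 3 Trpm2-/- (labelled TRPM2-KO). All 6 animals received cisplatin at 18 mg/kg and were examined 72 h later, as a model of acute kidney injury, so the controls are injured as well and no untreated kidney was analysed here. The labels give an age of 6 to 8 weeks and number the WT replicates 1, 2 and 3 and the Trpm2-/- replicates 1, 2 and 4, while the methods give a slightly older range and male mice. The Trpm2-/- allele lacks exons of the channel's transmembrane part and is not limited to the kidney, and the WT mice came from a separate supplier, so genotype and mouse colony cannot be told apart.

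TAL cells take up salt from the tubular fluid through the sodium-potassium-chloride cotransporter NKCC2, the product of Slc12a1 and the target of loop diuretics. Potassium returns to the lumen through ROMK (Kcnj1), and chloride leaves on the blood side, which needs the channel subunit barttin (Bsnd). The lumen-positive voltage drives calcium and magnesium between the cells through pores made of claudin-16 and claudin-19 (Cldn16, Cldn19). The same cells secrete uromodulin (Umod), the most abundant protein of normal urine. DCT cells take up salt through the thiazide-sensitive cotransporter NCC (Slc12a3), which is switched by a kinase cascade that includes WNK4 (Wnk4), and the early DCT of the mouse holds the calcium-binding protein parvalbumin (Pvalb).

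Upstream sequences are given for the gene that passed the test below and for the cotransporter that defines each segment. RefSeq promoter sequences (build GRCm38.p6) matched 8 of the 9 genes, without Bsnd, and the 250 bases before the transcription start are printed 5′ to 3′, with motif matches in capitals. They come from chr7:119479263-119479512 on the minus strand for Umod, chr2:125152350-125152599 on the plus strand for Slc12a1 and chr8:94328958-94329207 on the plus strand for Slc12a3. The starts used are those of RefSeq and lie inside the gene positions given below. Each of these windows therefore also covers the first bases of the gene as placed there.
Umod: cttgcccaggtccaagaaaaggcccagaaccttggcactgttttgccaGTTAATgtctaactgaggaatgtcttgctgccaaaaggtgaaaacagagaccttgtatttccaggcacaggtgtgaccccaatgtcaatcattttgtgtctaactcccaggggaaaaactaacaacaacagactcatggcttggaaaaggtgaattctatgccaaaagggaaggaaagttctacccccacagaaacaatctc
Slc12a1: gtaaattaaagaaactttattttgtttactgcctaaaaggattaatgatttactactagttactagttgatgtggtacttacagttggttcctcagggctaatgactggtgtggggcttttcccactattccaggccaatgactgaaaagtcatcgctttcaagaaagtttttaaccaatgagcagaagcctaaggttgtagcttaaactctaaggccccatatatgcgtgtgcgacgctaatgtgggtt
Slc12a3: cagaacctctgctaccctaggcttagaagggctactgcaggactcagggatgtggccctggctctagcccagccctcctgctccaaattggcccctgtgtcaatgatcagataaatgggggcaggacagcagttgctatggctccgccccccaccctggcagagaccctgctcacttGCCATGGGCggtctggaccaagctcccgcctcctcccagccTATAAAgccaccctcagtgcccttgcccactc
Searched on either strand were the TATA box (TATAAA), a half-site of HNF1 factors (GTTAAT), a half-site of estrogen-related receptors (AAGGTCA) and the AP-2 sequence (GCCNNNGGC), and no match printed overlaps another. Umod held GTTAAT starting 202 bases before the start, a sequence found in 6.44% of all 32817 promoter windows of the same length. Slc12a3 held a TATA box 32 bases before the start (12.4% of all windows) and an AP-2 sequence 73 bases before it (13.7%). Slc12a1 held none of them. Among the 8 genes, 1 had the TATA box, 1 had GTTAAT, 0 had AAGGTCA (4.08% of all windows) and 3 had the AP-2 sequence. These are matches of letters and not measured binding.

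Total counts on genes ranged from 14053307 to 17150089 per library, and 3 counts, taken as the lowest level that can be shown, corresponded to 0.184 to 0.205 CPM (counts scaled to library size) in the normalised libraries, which covers counting error only. Trpm2 itself had 0.308, 0.321 and 1.66 CPM in WT and 0.612, 1.09 and 1.25 CPM in Trpm2-/- kidneys. The count spans the exons that the allele keeps, so it does not check the genotype. Some libraries stood apart in markers of other cells. The 5 podocyte markers summed to 509.8 CPM in Trpm2-/- replicate 4 against 130.4 to 173.3 CPM in the other 5 libraries, and the 5 endothelial markers to 190.7 against 42.7 to 75.6 CPM. WT replicate 1 had 49.1 CPM of urothelium markers against 1.29 to 11.4 CPM elsewhere. The mitochondrial genome took 4.43% to 4.72% of counts in WT and 7.91% to 11.0% in Trpm2-/- kidneys. The part of these differences in the results below was not tested. For the tested genes of salt transport and segment identity, and ratios between them, values without each mouse are given where they change a result. No such values are given for the other genes named below. How far the calls for those other genes rest on single mice was therefore not tested.

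Umod had the highest level of the 9 genes in every library, followed in WT kidneys by Slc12a1 and Wnk4. Levels between genes are compared in FPKM, the deposited values, which are scaled to gene length and library total. Mean FPKM in WT kidneys were 298 ± 161 for Umod, 46.3 ± 29.3 for Slc12a1, 35.2 ± 2.37 for Wnk4, 23.8 ± 8.68 for Kcnj1, 10.5 ± 0.709 for Slc12a3, 10.3 ± 2.46 for Cldn16, 9.05 ± 1.58 for Bsnd, 6.67 ± 2.18 for Cldn19 and 0.456 ± 0.0909 for Pvalb (SD, n = 3). In this order the ranges of neighbours overlapped for Slc12a1 with Wnk4 and for Slc12a3, Cldn16, Bsnd and Cldn19 in sequence, and were apart at the other steps. In Trpm2-/- kidneys Umod was still first and Pvalb last, Wnk4 came before Slc12a1, and all neighbours between Wnk4 and Cldn19 overlapped. FPKM depend on the gene length that the authors used. For Slc12a3 this was 11119 bases against 3299 in its principal transcript, and for Cldn19 it was 4263 against 924, so the order between genes depends on this length while the comparison of kidneys does not. All of the 9 genes but Pvalb were detected in every kidney.

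**Figure D1:**
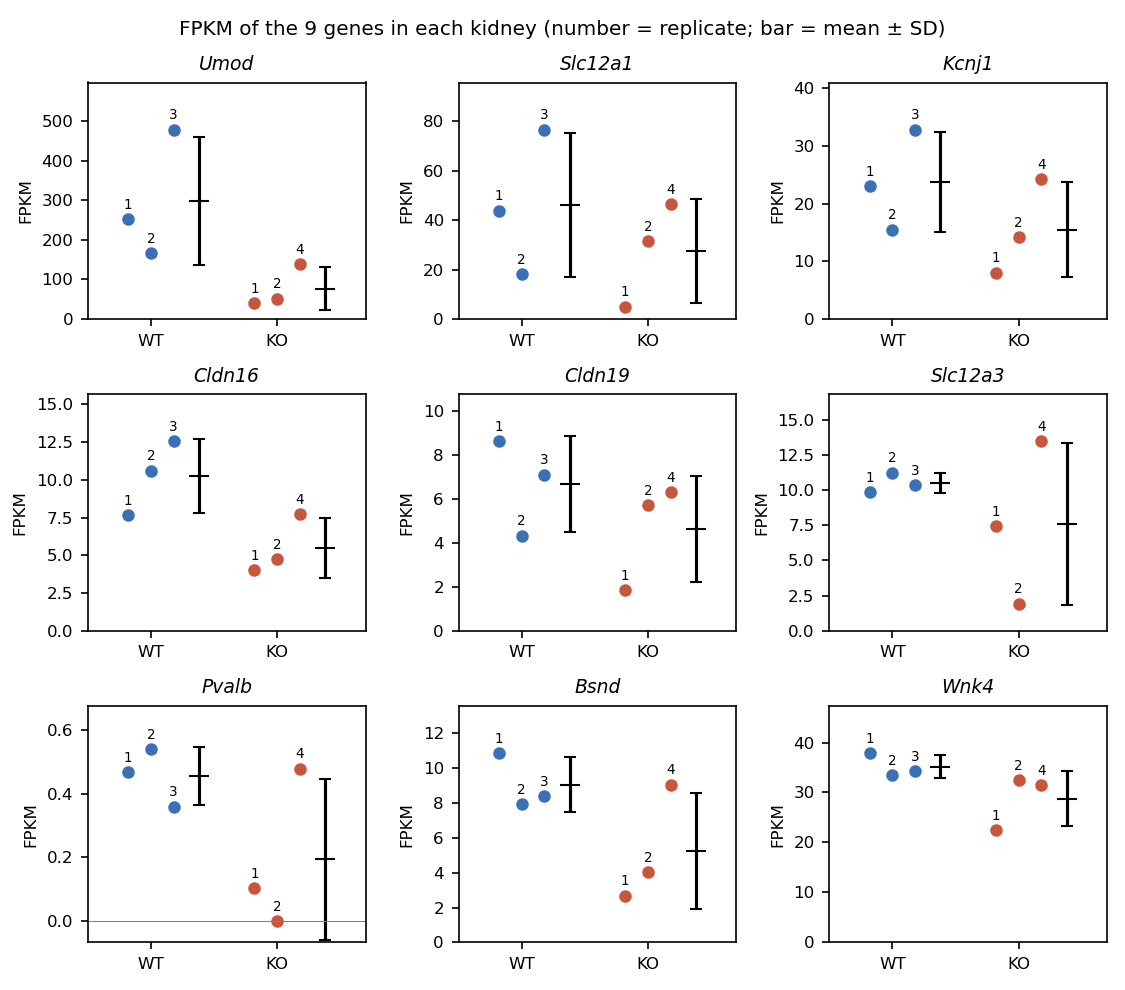
FPKM of the 9 genes in each kidney, with 1 panel per gene, a linear axis and dots numbered by replicate (blue WT, red Trpm2-/-, labelled KO), and bars for the mean ± SD of 3 mice. Umod is lower in every Trpm2-/- kidney than in every WT kidney, Slc12a3 is lowest in Trpm2-/- replicate 2, with replicate 1 also below the WT kidneys, and Slc12a1 is lowest in Trpm2-/- replicate 1.

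Of the 9 genes, 8 passed the filter on low counts, and 1, Umod, had an adjusted p under 0.05 between genotypes. It was lower in Trpm2-/- kidneys, and 0 genes of the 9 were higher (edgeR's quasi-likelihood test, Benjamini-Hochberg adjustment over 15816 genes). Of all genes tested, 7.28% were called lower and 4.74% higher, so 1 of 8 is near the background. At the threshold of the methods (absolute log2 fold change over 1 and p under 0.05, taken here as unadjusted), Umod was again the 1 gene called, against 4.10% of all genes called lower and 3.50% called higher. The log2 fold changes of the 8 genes ran from -1.97 to -0.30 with a median of -0.69, beside 0.02 over all genes tested, and 8 of 8 lay below 0, as did 48.4% of all genes. The 8 genes were measured in the same 6 libraries, so these values are not independent of each other. At an unadjusted p under 0.05, Umod and Cldn16 were lower (edgeR), against 14.3% of all genes.

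Umod (chromosome 7, 119462711 to 119479282, minus strand of GRCm38) has 11 exons in its principal transcript. It measured 251.5, 165.7 and 477.9 FPKM in WT replicates 1, 2 and 3 and 40.7, 50.95 and 139 FPKM in Trpm2-/- replicates 1, 2 and 4. The groups did not overlap, although the highest Trpm2-/- kidney came close to the lowest WT kidney. All 3 Trpm2-/- below all 3 WT was found for 16.8% of all genes tested. The mean FPKM in Trpm2-/- kidneys was 25.8% of that in WT kidneys. On normalised counts, Umod fell from 943 ± 513 to 240 ± 167 CPM (SD, n = 3), which is -1.97 as log2 fold change (95% confidence interval -3.09 to -0.86, adjusted p = 0.0326 from edgeR). In RNA from kidney tissue, fewer TAL cells and less Umod RNA per cell cannot be told apart.

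The call for Umod rested on few mice. It was lost without WT replicate 1 (log2 fold change -2.09, adjusted p = 0.0515 from edgeR), without WT replicate 3 (-1.46, 0.118), without Trpm2-/- replicate 1 (-1.67, 0.0990) and without Trpm2-/- replicate 2 (-1.76, 0.0784). It held without WT replicate 2 (-2.27, 0.0362) and was largest without Trpm2-/- replicate 4 (-2.70, 0.00631), and the direction was the same each time. The predicted gene Gm44588 lies on the opposite strand and holds 10.8% of the 75-base windows of Umod transcripts. It was listed with 0 counts in each of the 6 libraries, and since the strand setting of the counting is not given, reads of the pair cannot be told apart there.

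**Figure D2:**
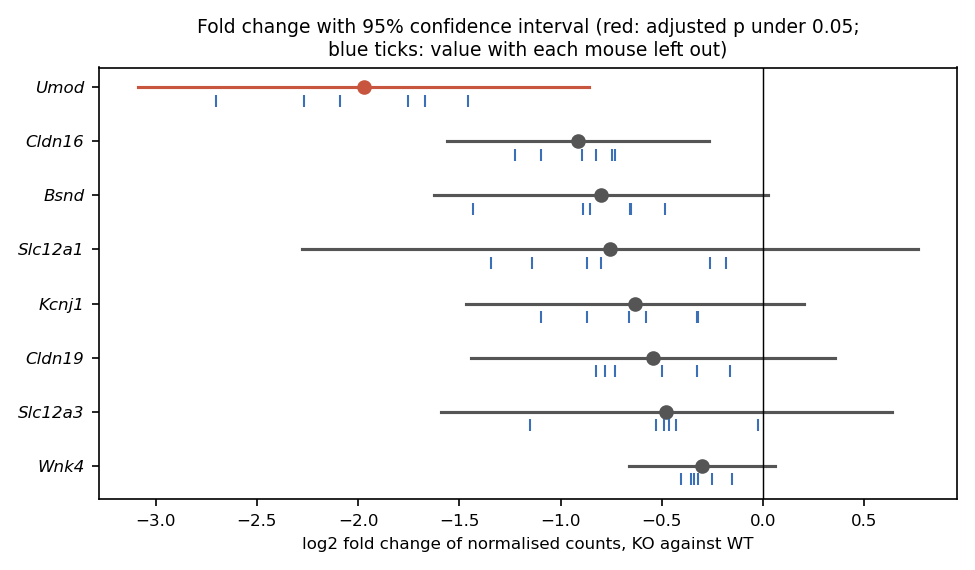
Log2 fold change of normalised counts, Trpm2-/- against WT, on the horizontal axis for the 8 genes tested, with 95% confidence intervals from edgeR (lines) and the values with each mouse left out in turn (blue ticks). Umod, in red, had an adjusted p under 0.05, the interval of Cldn16 also lies below 0, the other 6 intervals include 0, and every tick is below 0.

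The salt-uptake genes of the TAL varied widely from mouse to mouse and overlapped between genotypes. Slc12a1 (chromosome 2, 125152505 to 125230002), which encodes NKCC2, measured 43.9, 18.2 and 76.6 FPKM in WT replicates 1, 2 and 3 and 5.004, 31.6 and 46.5 FPKM in Trpm2-/- replicates 1, 2 and 4. Only Trpm2-/- replicate 1 lay below the WT range, and the lowest and highest Trpm2-/- kidneys differed 9.29-fold. Its log2 fold change was -0.76 (95% confidence interval -2.28 to 0.76, adjusted p = 0.510 from edgeR), an interval wide enough to hold a large fall or a rise. It was -0.26 without Trpm2-/- replicate 1 and -0.18 without WT replicate 3, but -1.34 without Trpm2-/- replicate 4 and -1.14 without WT replicate 2.

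Kcnj1 (chromosome 9, 32372493 to 32399197), the gene of the ROMK channel, followed the same mice with smaller swings. It measured 23.0, 15.5 and 32.8 FPKM in WT replicates 1, 2 and 3 and 8.01, 14.2 and 24.3 FPKM in Trpm2-/- replicates 1, 2 and 4. WT replicate 3 was the highest and Trpm2-/- replicate 1 the lowest, as for Umod and Slc12a1, and the groups overlapped. The log2 fold change was -0.63 (95% confidence interval -1.47 to 0.20, adjusted p = 0.303 from edgeR). It was -1.10 without Trpm2-/- replicate 4, but -0.32 without Trpm2-/- replicate 1 and -0.33 without WT replicate 3.

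Bsnd (chromosome 4, 106483456 to 106492283), the barttin gene, is active in both segments and in intercalated cells. It measured 10.85, 7.92 and 8.385 FPKM in WT replicates 1, 2 and 3 and 2.68, 4.04 and 9.03 FPKM in Trpm2-/- replicates 1, 2 and 4. Of the Trpm2-/- kidneys, 2 were below the WT range and replicate 4 was inside it. The log2 fold change was -0.80 (95% confidence interval -1.63 to 0.03, adjusted p = 0.190 from edgeR). It was -1.43 without Trpm2-/- replicate 4, with an adjusted p of 0.00803 from edgeR, but -0.49 without Trpm2-/- replicate 1 (adjusted p = 0.376), and the adjusted p was 0.270 to 0.376 without any other single mouse.

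The claudins of the divalent cation pore were both lowest in Trpm2-/- replicate 1. Cldn16 (chromosome 16, 26463135 to 26482765) measured 7.655, 10.6 and 12.5 FPKM in WT replicates 1, 2 and 3 and 3.998, 4.745 and 7.73 FPKM in Trpm2-/- replicates 1, 2 and 4. The groups overlapped by a small margin in FPKM and touched without overlap in CPM (10.24 in WT replicate 1 and 10.21 in Trpm2-/- replicate 4). All 3 Trpm2-/- below all 3 WT in CPM was found for 16.8% of all genes tested. Its log2 fold change was -0.92 (95% confidence interval -1.56 to -0.27), and the adjusted p of 0.0701 from edgeR did not pass. Without Trpm2-/- replicate 4 the log2 fold change was -1.23, with an adjusted p of 0.0209 from edgeR. Without any other single mouse it ran from -1.10 to -0.73, with adjusted p from 0.0566 to 0.257.

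Cldn19 (chromosome 4, 119255414 to 119262438) measured 8.60, 4.31 and 7.10 FPKM in WT replicates 1, 2 and 3 and 1.85, 5.71 and 6.30 FPKM in Trpm2-/- replicates 1, 2 and 4. Trpm2-/- replicate 1 alone was below the WT range. The log2 fold change was -0.54 (95% confidence interval -1.44 to 0.35, adjusted p = 0.415 from edgeR). It was -0.17 without Trpm2-/- replicate 1 and -0.33 without WT replicate 1, and -0.83 without Trpm2-/- replicate 4. Gm12927, on the opposite strand, shares 0.399% of the 75-base windows of Cldn19 and had 2 to 18 counts.

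Slc12a3 (chromosome 8, 94329201 to 94366214), the NCC gene of the DCT, was nearly constant in WT kidneys and scattered widely in Trpm2-/- kidneys. It measured 9.84, 11.2 and 10.3 FPKM in WT replicates 1, 2 and 3 and 7.43, 1.92 and 13.4 FPKM in Trpm2-/- replicates 1, 2 and 4. Replicates 1 and 2 were below the WT range, replicate 2 by far, and replicate 4 was above it, a 7.01-fold difference within a genotype. The log2 fold change was -0.48 (95% confidence interval -1.59 to 0.64, adjusted p = 0.576 from edgeR), and it was -0.02 without Trpm2-/- replicate 2 and -1.15 without Trpm2-/- replicate 4.

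Wnk4 (chromosome 11, 101260567 to 101277409), a kinase that acts on NCC and NKCC2, had the steadiest levels of the genes that passed the filter. It measured 37.9, 33.4 and 34.2 FPKM in WT replicates 1, 2 and 3 and 22.4, 32.5 and 31.4 FPKM in Trpm2-/- replicates 1, 2 and 4. All Trpm2-/- kidneys were below all WT kidneys, by a small margin for replicates 2 and 4. In CPM, this order was found for 16.8% of all genes tested. The log2 fold change was -0.30 (95% confidence interval -0.66 to 0.06, adjusted p = 0.254 from edgeR), and it was -0.15 without Trpm2-/- replicate 1. Gm11615, on the opposite strand, shares 3.72% of its 75-base windows and had 0 to 10 counts.

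Pvalb (chromosome 15, 78191114 to 78206400), the parvalbumin gene of the early DCT, did not pass the filter. It had 9, 10 and 7 counts in WT replicates 1, 2 and 3 and 2, 0 and 9 counts in Trpm2-/- replicates 1, 2 and 4. Trpm2-/- replicate 2, the kidney with the lowest Slc12a3, was the one listed at 0, which allows up to 3 counts or 0.205 CPM. With no filter its log2 fold change was -1.22 (95% confidence interval -2.91 to 0.47, adjusted p = 0.483 from edgeR), a fitted value that depends on the handling of the 0. Pvalb is also a gene of fast muscle fibres. The 8 skeletal muscle markers summed to 1.80 to 3.62 CPM in WT and 2.39 to 3.69 CPM in Trpm2-/- kidneys. Mylpf had 14 to 34 and Actn3 3 to 15 counts per library. Ckm, Myh4 and Myl1 had 0 counts in 3, 5 and 5 of the 6 libraries. Atp2a1 had 24 counts in Trpm2-/- replicate 4 against 2 to 8 in the other libraries, so the part of muscle in the Pvalb counts was not settled and was not tested.

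Spread within a genotype was measured as the standard deviation of log2(CPM + 0.5) over 3 mice. In WT kidneys it was 1.04 for Slc12a1 and 0.77 for Umod, larger than in 99.5% and 98.4% of all genes tested, but 0.10 for Slc12a3 and 0.09 for Wnk4, where the median over all genes was 0.17. In Trpm2-/- kidneys it was 1.704 for Slc12a1 and 1.42 for Slc12a3, larger than in 99.9% and 99.8% of all genes, and the median was 0.26. The spread was larger in Trpm2-/- than in WT kidneys for 8 of the 8 genes and for 69.2% of all genes. Slc12a1 was lowest in Trpm2-/- replicate 1 and Slc12a3 in replicate 2, and replicate 1 was below the WT range for both.

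Among Trpm2-/- kidneys, replicate 1 held the lowest CPM of 7 of the 8 genes, Wnk4 and Bsnd among them, and replicate 2 that of Slc12a3. Over all genes tested, replicates 1 and 2 held the lowest Trpm2-/- value for 34.9% and 33.0%. They held the lowest value of all 6 libraries for 22.8% and 16.4%. The CPM was below all WT kidneys for 8 of the 8 genes in replicate 1, 6 in replicate 2 and 3 in replicate 4, where the shares of all genes were 39.2%, 33.4% and 35.3%. Trpm2-/- replicate 4, the kidney with the most podocyte and endothelial RNA, had the highest Trpm2-/- value for 7 of the 8 genes, against 33.5% of all genes. Among WT kidneys replicate 2 was lowest for 6 of the 8 genes, against 30.9% of all genes.

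The same mice stood out in lists of other genes of the segments. Of 16 other TAL genes tested, Trpm2-/- replicate 1 was lowest of the 6 libraries for 12 and replicate 2 for 4. Of 18 other genes of the DCT and the connecting tubule that follows it, replicate 1 was lowest for 2 and replicate 2 for 13, among them Calb1 (calbindin, 41.6 CPM against 109.6 and 190.6 CPM in replicates 1 and 4), Klk1 (kallikrein, 396 against 684 and 1456 CPM) and Trpv5 (an apical calcium channel, 7.31 against 17.5 and 32.0 CPM). Proximal tubule markers shared the low in replicate 2, which was lowest for 8 of 10, while replicate 1 was lowest for 4 of the 6 principal cell markers. Over all genes tested, Trpm2-/- replicates 1 and 2 were lowest of the 6 libraries for 22.8% and 16.4%. WT kidneys differed in the same manner. Replicate 3 was highest of the WT for 15 of the 16 other TAL genes, against 34.05% of all genes. Replicate 2 was highest of the WT for 15 of the 18 other DCT and connecting tubule genes, against 32.88% of all genes. These counts describe single mice and were compiled after the values were seen. The share of each tubule segment in the tissue taken for RNA was not measured, and its part in these differences was not tested.

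**Figure D3:**
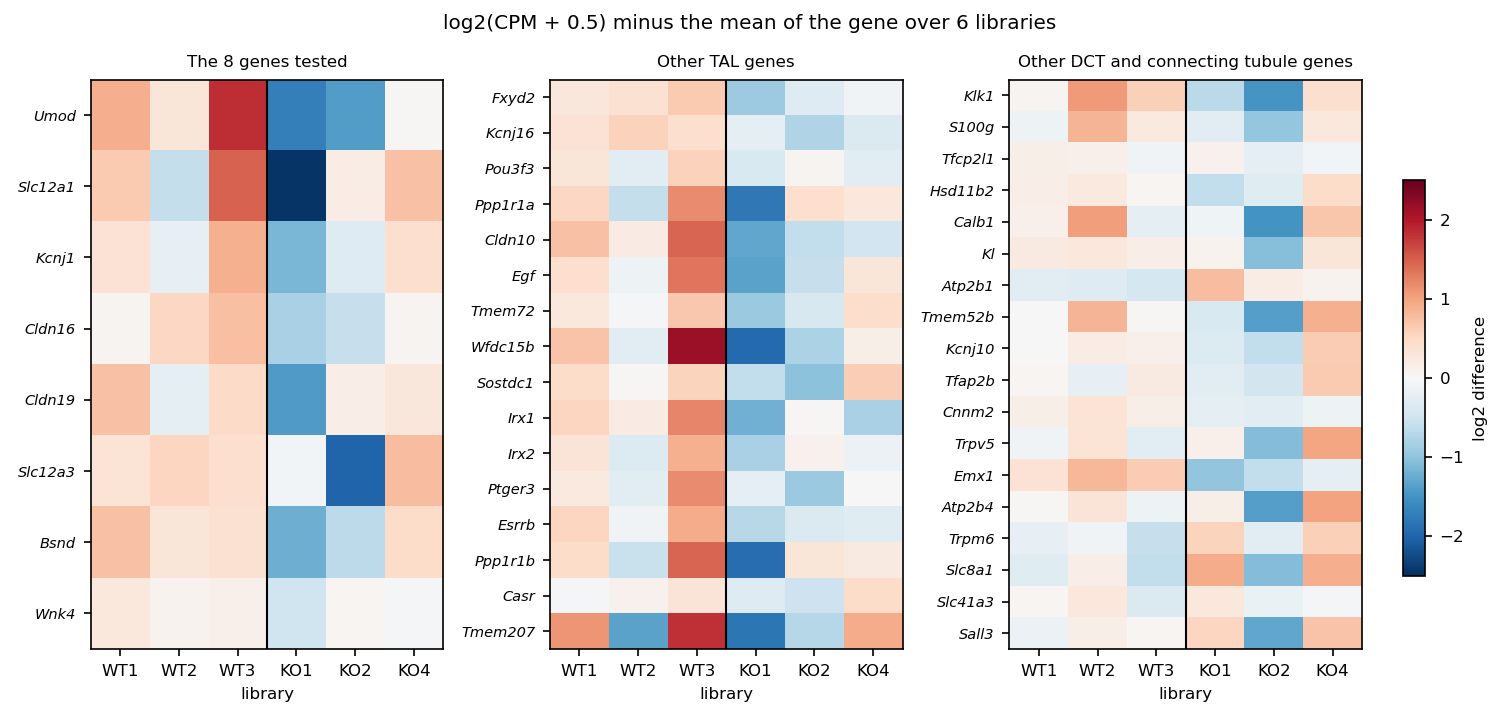
Colours show log2(CPM + 0.5) minus the mean over the 6 libraries (columns, KO for Trpm2-/-) for the 8 genes tested, 16 other TAL genes and 18 other DCT and connecting tubule genes (rows), with red above and blue below the mean on a scale cut at ±2.5. The TAL panels are bluest in Trpm2-/- replicate 1, and the DCT panel and Slc12a3 in Trpm2-/- replicate 2.

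**Figure D4:**
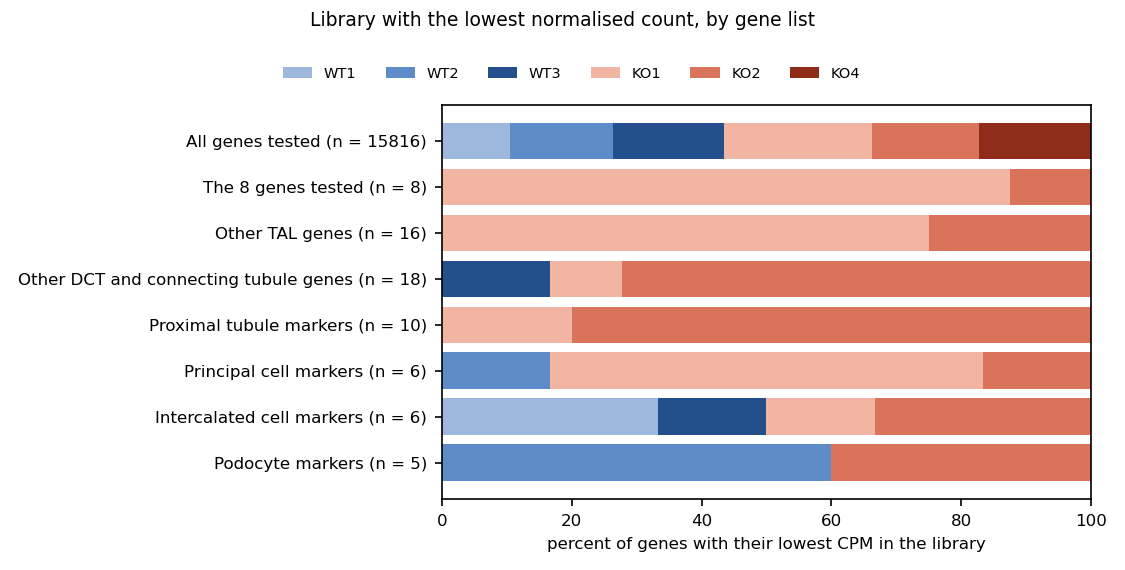
For each gene list (rows), the bar divides the tested genes by the library with the lowest CPM, in percent of genes (horizontal axis), with WT in blue and Trpm2-/- in red shades. Over all genes no library holds more than 22.8%, while Trpm2-/- replicate 1 holds 12 of the 16 other TAL genes and Trpm2-/- replicate 2 holds 13 of the 18 other DCT and connecting tubule genes.

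Whether 2 genes changed by different amounts was asked with the ratio of their FPKM within each library, which cancels library size. The ratio of Slc12a3 to Slc12a1 was 0.224, 0.616 and 0.135 in WT replicates 1, 2 and 3 and 1.48, 0.0607 and 0.289 in Trpm2-/- replicates 1, 2 and 4. The genotypes covered each other, with a log2 difference of 0.16 (two-sided exact permutation test, p = 0.9), and the highest and the lowest ratio of the 6 kidneys were Trpm2-/- replicates 1 and 2. The ratio of Umod to Slc12a1 was 5.73, 9.09 and 6.24 in WT and 8.14, 1.61 and 2.99 in Trpm2-/- kidneys (log2 difference -1.02, exact permutation p = 0.3). The ratio was below the WT range in Trpm2-/- replicates 2 and 4 and inside it in replicate 1. The difference was -1.65 without Trpm2-/- replicate 1 and -0.48 without Trpm2-/- replicate 2. For the other pairs tested, Kcnj1 to Slc12a1, Cldn16 to Cldn19 and Wnk4 to Slc12a3, log2 differences ran from -0.27 to 0.55 with exact permutation p from 0.7 to 0.9. The adjusted p was 0.9 for each of the 5 pairs, and 3 mice against 3 cannot go below 0.1. Pvalb to Slc12a3 was left out because of the 0.

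Of 4 genes that work beside these transporters on the blood side, 2 fell and 0 rose, where 7.28% of all genes fell and 4.74% rose, and the median log2 fold change was -0.71. Kcnj16, a subunit of the basolateral potassium channel, fell from 396 ± 31.5 to 213 ± 36.7 CPM (SD, n = 3), or -0.89 on the log2 scale with a standard error of 0.161 (adjusted p = 0.00853 from edgeR). Its partner Kcnj10 had -0.12 (adjusted p = 0.824 from edgeR). Fxyd2, a regulator of the sodium pump, had a log2 fold change of -0.85 (adjusted p = 0.0365 from edgeR), and Atp1b1, a subunit of the pump, had -0.56 (adjusted p = 0.0954 from edgeR). The pump and Kcnj16 are also active in the proximal tubule, where 10 of 10 markers fell with a median of -1.74.

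Among 18 other TAL genes, 16 were tested, 5 fell and 0 rose, beside the 7.28% of all genes called lower, with a median log2 fold change of -0.88. Besides Kcnj16 and Fxyd2 these were Cldn10 (-1.67, adjusted p = 0.0104 from edgeR), a claudin gene, and the transcription factor genes Irx1 (-1.32, 0.0364) and Esrrb (-0.99, 0.0397). Cldn10 had 70.4, 48.6 and 115 CPM in WT replicates 1, 2 and 3 and 16.6, 27.0 and 30.1 CPM in Trpm2-/- replicates 1, 2 and 4. All 3 Trpm2-/- kidneys were below all 3 WT kidneys, as for 16.8% of all genes. This count is for the whole gene in kidney tissue, so it does not show which segment or transcript form the RNA came from. Egf, the precursor of epidermal growth factor made in TAL and DCT, had -1.07 (adjusted p = 0.145 from edgeR). Cldn14 and Nos1 did not pass the filter.

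Of the 18 DCT and connecting tubule genes, 1 fell and 1 rose, near the 7.28% and 4.74% of all genes, with a median log2 fold change of -0.12. Emx1, a homeobox gene, fell from 23.8 ± 3.86 to 10.04 ± 2.69 CPM and Atp2b1, a plasma membrane calcium pump found in many cells, rose from 54.3 ± 3.07 to 89.9 ± 24.2 CPM (SD, n = 3). Klk1 and Cnnm2, a gene of magnesium transport, had -1.01 and -0.43 (adjusted p = 0.153 and 0.0774 from edgeR), and Trpm6, the magnesium channel of the DCT, had 0.66 (adjusted p = 0.163 from edgeR).

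The regulators that act on NCC and NKCC2 went in both directions, with 6 fold changes above 0 and 6 below. Of 13 genes of the WNK-SPAK list 12 were tested, and the median log2 fold change was -0.01. In this list 1 gene rose and 0 fell, near the 4.74% and 7.28% of all genes. All 3 Trpm2-/- kidneys were below all 3 WT kidneys for 3 genes and above them for 3, against 16.8% and 16.7% of all genes. Wnk1 rose from 151 ± 17.1 to 228 ± 34.2 CPM (SD, n = 3), or 0.59 on the log2 scale with a standard error of 0.155 (adjusted p = 0.0380 from edgeR), and the 3 Trpm2-/- kidneys were above the 3 WT kidneys, as for 16.7% of all genes. A gene-level count does not separate full-length WNK1 from the short kidney form without kinase activity. The kinases SPAK (Stk39) and OSR1 (Oxsr1) had -0.15 and 0.24, and their partners Cab39 and Cab39l had 0.18 and -0.51 (adjusted p from 0.0543 to 0.563 from edgeR). Klhl3 and Cul3, which mark WNK kinases for breakdown, had -0.72 and 0.13 (adjusted p = 0.214 and 0.564 from edgeR). Sgk1, Nedd4l, Hsd11b2 and Nr3c2, of the aldosterone response, had -0.35, -0.28, -0.23 and 0.26 (adjusted p from 0.0846 to 0.579 from edgeR). Wnk2 had 0.62 (adjusted p = 0.310 from edgeR), and Wnk3 did not pass the filter.

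The mean profile of the 8 genes over the 6 libraries, as centred log2(CPM + 0.5), was 0.51, 0.09 and 0.80 in WT replicates 1, 2 and 3 and -1.17, -0.57 and 0.34 in Trpm2-/- replicates 1, 2 and 4. Of the 8, Kcnj1 was closest to this mean, with a root mean square difference of 0.17, and Slc12a3 farthest with 0.80. Outside the lists, the closest genes were Aqp6 (0.11), Fam117a (0.12), Fads6 (0.16), Ybx2 (0.17) and Nnmt (0.17). Aqp6 measured 62.0, 48.9 and 90.3 CPM in WT replicates 1, 2 and 3 and 18.7, 30.0 and 51.9 CPM in Trpm2-/- replicates 1, 2 and 4. None of the 5 had an adjusted p under 0.05 (0.0883 to 0.379 from edgeR).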

How the data were processed

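The authors deposited 2 tables of 54532 genes: whole-number read counts per gene, without normalization, and FPKM values, computed by the authors from these counts by gene length and library total. The submitters' processing notes name HISAT2, StringTie and mm9, whereas 53499 of the 54409 genes also found in GENCODE mouse release 21 (GRCm38) had the start and end given there, so positions are taken as GRCm38. The counting tool and strand setting are not given in the sources used here. Counts were filtered (filterByExpr, 15816 genes kept), normalized by TMM and compared between genotypes with edgeR 4.0.16 (R 4.3.3), using the two-sided quasi-likelihood test with genotype only and Benjamini-Hochberg adjustment. Standard errors were derived from the fold change and the F statistic. Pairs of genes were compared with exact permutation tests over mice. Replicate libraries differed beyond sampling noise (chi-square per degree of freedom 13.5 to 36.7). Scripts were tested on simulated data. Genes and lists were chosen with earlier results of these data known. Some genes of the lists are not reported here and were left out of the list counts and pairs. Named were all 9 genes, all basolateral partners and WNK-SPAK regulators, up to 5 genes of each other list by smallest p, and the 5 closest profiles. Calb1, Trpv5, Egf, Fxyd4, Mylpf, Ckm, Myh4, Myl1, Atp2a1 and Actn3 were named after their values were seen. Alternatives were other normalizations and filters, DESeq2 1.42.0, limma 3.58.1 (voom, and log2(FPKM + 1) or + 0.1 at a mean FPKM of at least 0.1), protein-coding genes only, a replicate block and leaving out each mouse.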

Additional observations from a re-analysis of the deposited data

How the results depend on the processing

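The number of the 9 genes called lower was 1, and it stayed 1 with DESeq2's size factors, upper quartile, a mean CPM of at least 1, limma-voom, protein-coding genes only and without the mitochondrial genome. It was 7 with no filter on low counts, where 1692 of 28884 genes were called lower. The standard error of Slc12a1 was then 0.171 in place of 0.678. The DESeq2 Wald test called 2 (Umod and Cldn16), and 1444 of 15816 genes, lower. The number was 0 by limma on log2(FPKM + 1) and log2(FPKM + 0.1), with an adjusted p for Umod of 0.0757 and 0.0687. These 2 settings called 754 and 786 of 19817 genes lower. The causes were not tested. With each mouse left out it ran from 0 to 3, genes past the threshold of the methods from 1 to 5, and the median log2 fold change from -1.19 to -0.39. No setting called a gene of the 9 higher or turned the sign of a gene's fold change. Numbers 1 and 2 occur in both genotypes without a stated pairing, and same-numbered mice did not deviate together over all genes (r = 0.0960 and -0.00275). The replicate block on these 4 mice called 2 genes, Umod and Bsnd, and 4 past the threshold of the methods. It called 602 of 15909 genes lower. Log2 differences of ratios turned sign when a mouse was left out, from -1.0 to 1.31 for Slc12a3 to Slc12a1, -0.25 to 0.67 for Kcnj1 to Slc12a1, -0.68 to 0.055 for Cldn16 to Cldn19, and -0.34 to 1.09 for Wnk4 to Slc12a3. Over all genes, 1902 were called (39.4% of them higher), 2954 with no filter, 1058 and 1124 by limma on FPKM (28.7% and 30.1% higher), 915 with the block, and 697 and 630 without WT replicate 2 or 3. Depth limits Pvalb, which had at most 10 counts.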

Other observations

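Other cell types of the same kidneys gave the following values. Across all genes tested, 7.28% were called lower and 4.74% higher. Of 6 intercalated cell markers, 0 changed past the test in either direction, with a median log2 fold change of 0.27. Their fold changes were above 0 for 5 and below 0 for 1, Slc4a1, with -1.57 (adjusted p = 0.0768 from edgeR). For Slc4a1 the 3 Trpm2-/- kidneys were below the 3 WT kidneys, as for 16.8% of all genes. Aqp2, the water channel of principal cells, fell from 1124 ± 152 to 555 ± 71.3 CPM and Aqp3 from 118 ± 14.7 to 85.6 ± 4.24 CPM (SD, n = 3), while Fxyd4 had a log2 fold change of -0.12, so 2 of 6 principal cell markers fell. Of 5 tubular injury markers 2 rose, Krt20 by 0.79 and Sox9 by 1.16 on the log2 scale, and Havcr1 had 0.51 (adjusted p = 0.0747 from edgeR). Of 5 podocyte and 5 endothelial markers 0 passed the test. Of 6 macrophage markers C1qa fell, with overlapping groups, while 4 of the 6 had fold changes below 0 and 2 above. The 2 above 0 were Lyz2 and Ptprc, with 1.35 and 0.76 (adjusted p = 0.0911 and 0.164 from edgeR). Of 2 adipocyte markers tested Fabp4 fell, of 3 urothelium markers tested Upk3a fell, of 4 fibroblast markers 0 passed, and the red cell markers had 0 to 6 counts.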
